A study of Mus musculus with 2 samples.

Results

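Cytosolic ribosomal protein genes encode the proteins of the ribosome outside mitochondria, and their positions were compared with the chromatin boundaries of mouse olfactory sensory neurons. Members were the protein-coding genes of GENCODE M21 whose symbol is Rpl or Rps with a number and at most 1 suffix letter (a, l, x or y), together with Rplp0, Rplp1, Rplp2 and Rpsa and without the Rps6k kinase genes. This rule found 80 of 21755 protein-coding genes on chromosomes 1 to 19 and X, 49 of the large subunit and 31 of the small subunit. A few of these symbols (Rpl3l, Rpl10l, Rpl39l and Rps27l) belong to paralogues of the standard proteins, so the label covers more than the core ribosome.

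The neurons were mature cells expressing the odorant receptor gene Olfr16 (MOR23), isolated by cell sorting out of olfactory epithelium; the donors were adult MOR23-GFP mice, males and females, of a strain the labels do not give. In situ Hi-C, which ligates and sequences pairs of DNA ends that touch in intact nuclei, was run on 2 biological replicates of 28000 and 24400 cells fixed in 1% formaldehyde and cut with DpnII. The authors called boundaries, positions that separate stretches of chromosome rich in internal contacts, on both replicates combined, on GRCm38. The list holds 7435 intervals of 5 kb, 3854 Strong and 3581 Weak, each with the authors' score, and it has 1 group and no value per replicate. The depth of reads at a boundary is unknown, replicate error cannot be stated, and expression was not measured, so neither the cell identity nor the activity of these genes could be checked here.

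A mammalian ribosome has a large subunit, which forms peptide bonds, and a small subunit, which reads the mRNA. Their proteins are made in matched amounts from genes scattered over the chromosomes, and many of the mRNAs start with a run of pyrimidines, the 5′ terminal oligopyrimidine (TOP) tract, through which growth signals control their translation. Several of the genes carry small nucleolar RNAs (snoRNAs), guides of rRNA modification, in their introns.

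Of the 80 ribosomal protein genes, 28 started within 10 kb of a boundary (35.0%, exact 95% interval 24.7 to 46.5%, Clopper-Pearson, counting error only), where 12.4% of all protein-coding genes did. The start is the 5′ end of the GENCODE gene record, and the distance runs to the nearest edge of the boundary interval. Inside a boundary lay 10 starts (12.5%), against 3.25% of all protein-coding starts. Within 25 kb these shares were 48.75% of members and 24.6% of protein-coding genes, and within 100 kb 92.5 and 72.4%. The median distance was 25.8 kb for members (quartiles 5.72 and 56.8 kb) and 58.4 kb for all protein-coding genes (quartiles 25.6 and 107.8 kb). Within 10 kb of a Strong boundary lay 17 members (21.25%), against 7.88% of protein-coding genes. The contrast was smaller with any base of the gene body, 40% of members against 25.1% of protein-coding genes. With genes of the same nearest boundary counted once, by the closest, the shares were 34.2% of 76 members and 35.6% of 5801 protein-coding genes. This last count cannot decide whether the contrast holds. Members were thinned only against each other, which removed few of them. Protein-coding genes were cut to the closest gene at each boundary, which by construction raises their share. These values describe 1 pooled list, and no test over the members was made.

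**Figure D1:**
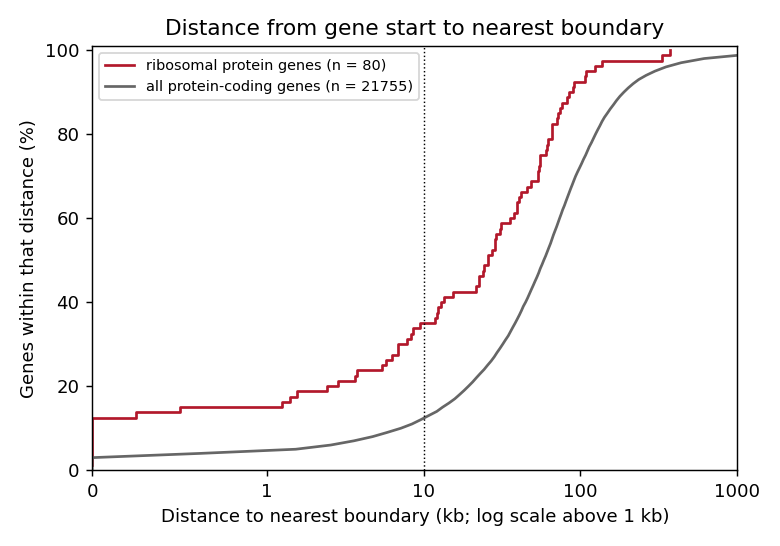
Share of genes (%) whose start lies within a given distance of a boundary (kb, log scale above 1 kb), for the 80 ribosomal protein genes (red) and all 21755 protein-coding genes (grey); the dotted line marks 10 kb. The red curve reaches 35.0% at 10 kb and the grey curve 12.4%.

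The 28 genes used 26 different boundaries, 16 Strong and 10 Weak, on 14 chromosomes. Scores of the nearest boundary ran from 0.240 to 2.78 in these 28 genes with a median of 0.650, and the median over all protein-coding genes within 10 kb was 0.671. The nearest boundary was Strong in 60.7% of the 28 and 63.7% of all protein-coding genes that near. The lowest of these scores belonged to the large subunit gene Rpl23a (0.240), and the highest to the small subunit gene Rps24.

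**Figure D2:**
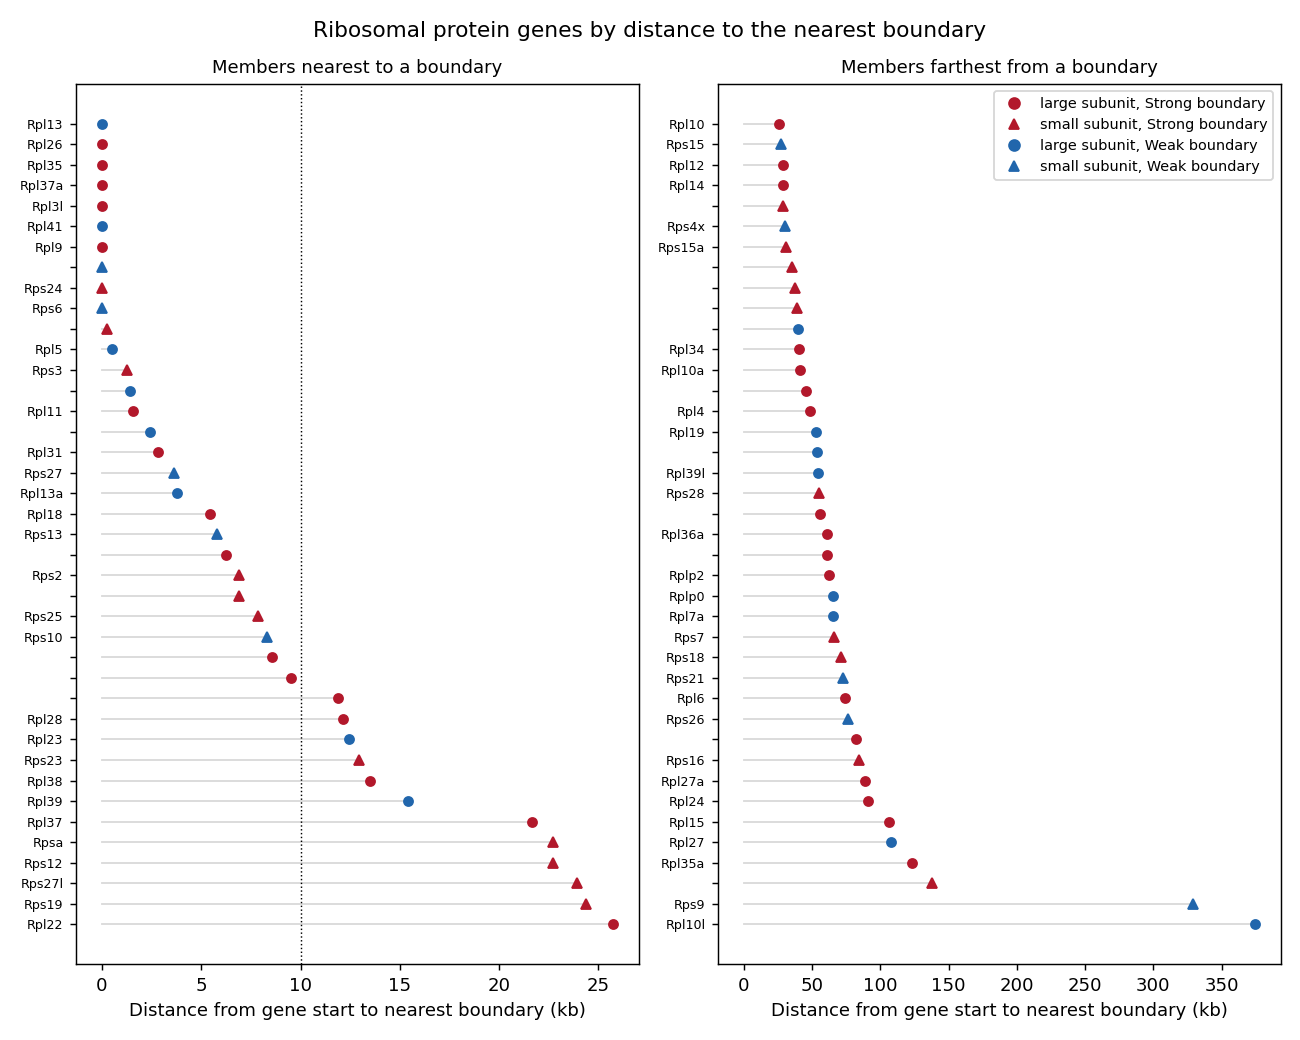
Distance from gene start to the nearest boundary (kb) for the 80 ribosomal protein genes, ranked in 2 panels with different axes; circles are large and triangles small subunit genes, red Strong and blue Weak boundaries. The dotted line in the left panel marks 10 kb, which 28 genes meet, and the 60 genes with an entry in the RefSeq promoter table are named; Rps9 and Rpl10l stand alone at 329.0 and 374.4 kb.

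Among small subunit genes, 3 started inside a boundary. Rps24, whose human counterpart is mutated in Diamond-Blackfan anaemia, started at position 24487125 of chromosome 14 inside a Strong boundary at chr14:24485001-24490000. Its score of 2.78 is at or above 99.6% of the list, and the start of Polr3a, the catalytic subunit gene of RNA polymerase III, lay 0.067 kb away on the opposite strand. The most upstream curated RefSeq start of Rps24 lies 3.55 kb farther along the gene, 0.678 kb beyond the boundary, so Rps24 is inside by 1 annotation only. Rps6, the substrate of the S6 kinases, started inside a Weak boundary scored 0.329 (chr4:86855001-86860000), which covered 87.6% of the gene. Its nearest other coding start, that of the ceramidase gene Acer2, was 17.0 kb away.

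Large subunit genes with a start inside a boundary numbered 7. Rpl9 started inside a Strong boundary scored 1.00 (chr5:65390001-65395000), 0.053 kb from Lias, the lipoic acid synthase gene, which is read the other way. Rpl26, whose protein sits by the exit of the nascent peptide, started inside a Strong boundary scored 0.897 (chr11:68900001-68905000) that overlapped no other gene. Rpl35, also at the peptide exit, started inside a Strong boundary scored 0.597 (chr2:39005001-39010000), together with the actin regulator gene Arpc5l on the opposite strand, 0.276 kb away. Rpl37a, a zinc finger protein of the large subunit, lay wholly inside a boundary scored 0.513 (chr1:72710001-72715000), the lowest score of a Strong boundary among the 28 genes. Rpl3l, the muscle paralogue of Rpl3, started inside a Strong boundary scored 1.44 (chr17:24725001-24730000), and the respiratory complex I gene Ndufb10 started 0.523 kb from that boundary. Rpl41, which encodes the smallest ribosomal protein, was wholly inside a Weak boundary scored 0.477 (chr10:128545001-128550000) that also held the start of Zc3h10. Rpl13 started inside a Weak boundary scored 0.326 (chr8:123100001-123105000), which covered 91.6% of the gene. By the most upstream RefSeq start, 9 members were inside a boundary, all of the 10 but Rps24.

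The sequence at the start is shown for 5 of these genes, picked after their letters were seen as examples with and without the marked elements, in windows that lie within the boundary: 100 bases before and 20 bases from the RefSeq start, 5′ to 3′ on the gene's strand, from RefSeq promoter windows on GRCm38.p6. Capitals mark CCGGAAG (the core of ETS factor sites) or GGGCGG (the GC box of Sp1) on either strand, and, from the first transcribed base, a pyrimidine run that starts with C.
Rps6: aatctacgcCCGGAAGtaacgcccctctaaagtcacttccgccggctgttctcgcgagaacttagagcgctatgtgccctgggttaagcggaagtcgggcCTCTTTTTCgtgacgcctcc
Rpl35: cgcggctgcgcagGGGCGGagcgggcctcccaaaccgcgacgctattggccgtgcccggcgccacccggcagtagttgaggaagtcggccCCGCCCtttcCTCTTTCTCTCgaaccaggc
Rpl26: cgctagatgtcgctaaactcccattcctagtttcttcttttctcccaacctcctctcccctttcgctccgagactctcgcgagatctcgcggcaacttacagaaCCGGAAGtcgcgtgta
Rpl41: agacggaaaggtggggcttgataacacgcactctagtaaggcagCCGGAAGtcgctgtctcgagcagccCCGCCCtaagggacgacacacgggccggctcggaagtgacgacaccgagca
Rpl3l: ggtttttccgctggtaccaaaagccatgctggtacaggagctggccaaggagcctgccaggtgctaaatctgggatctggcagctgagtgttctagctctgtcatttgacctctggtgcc
The windows are Rps6 at chr4:86857348-86857467 (- strand), Rpl35 at chr2:39005112-39005231 (-), Rpl26 at chr11:68901466-68901585 (+), Rpl41 at chr10:128549149-128549268 (-) and Rpl3l at chr17:24727726-24727845 (+). Rps6 and Rpl35 begin with pyrimidine runs of 9 and 11 bases, and the window of Rpl3l holds none of the marked elements. Among 9 windows of this length from genes that start inside a boundary, 4 held none of these elements. They were those of Rpl3l and of the standard ribosomal protein genes Rpl37a, Rpl9 and Rps24. The window of Rps24, at its RefSeq start, lies outside the boundary.

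In windows from 250 bases before to 50 bases from the most upstream RefSeq start, CCGGAAG on either strand was found in 32 of 80 members (40%) and in 12.2% of 20273 protein-coding genes with such a start. It was in 12 of the 28 members near a boundary (42.9%) and in 20 of the other 52 (38.5%). GGGCGG was in 57.5% of members and 48.7% of protein-coding genes, AAGATGG (a core of YY1 sites) in 12.5 and 6.39%, and TATAAA in 12.5 and 12.7%. A C followed by 4 pyrimidines stood exactly at the start in 16.25% of members and 2.23% of protein-coding genes, and a start annotated a few bases away is not counted. Within the members, that start was found in 5 of 28 genes near a boundary and in 8 of the other 52. A match is only a run of letters, and RefSeq start positions set where it was looked for.

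**Figure D3:**
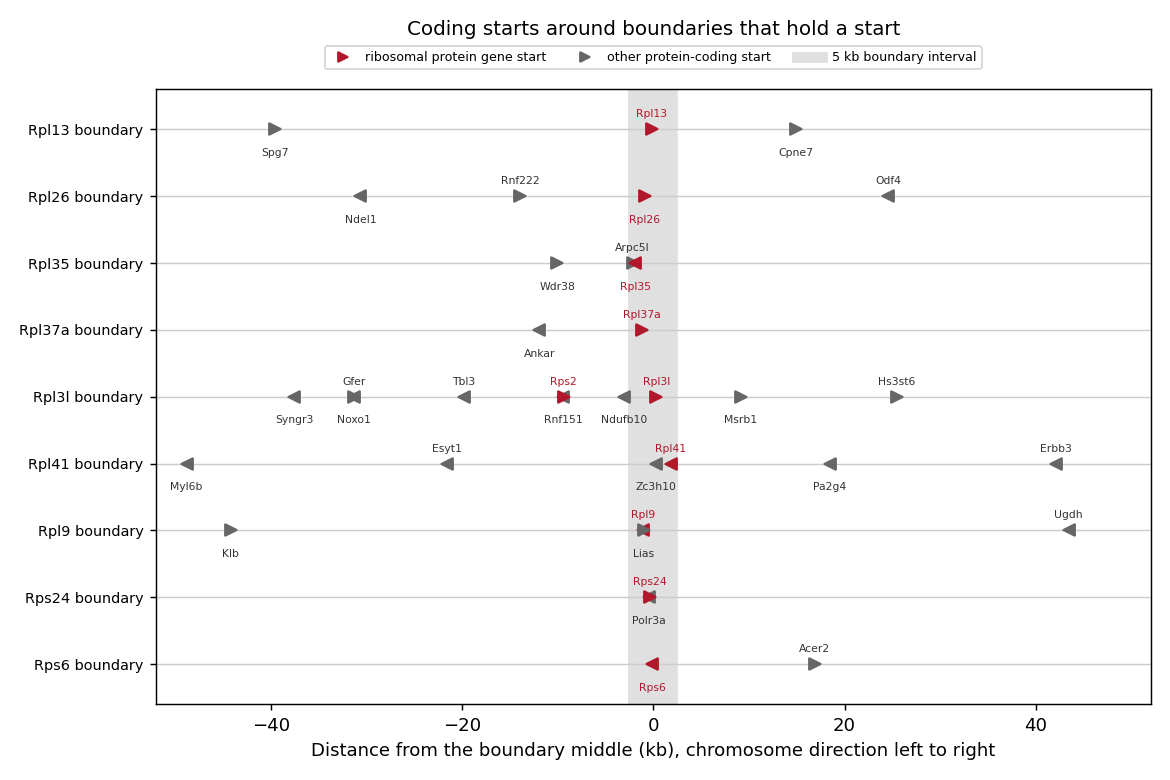
Protein-coding starts within 50 kb of the middle of each boundary that holds the start of a ribosomal protein gene (9 of the 10); arrowheads point along transcription, red for ribosomal protein genes and grey for others, and the shaded band is the 5 kb interval. Around the Rpl3l boundary lie 10 starts, and around the Rps24, Rps6 and Rpl37a boundaries 2 each.

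A further 18 members started outside a boundary but within 10 kb of one. Rpl5 and Rpl11, whose proteins bind 5S rRNA together and also inhibit Mdm2, the ubiquitin ligase of p53, both had the boundary upstream of their start. For Rpl5 it was Weak, scored 0.267 and 0.502 kb away (chr5:107895001-107900000), and for Rpl11 Strong, scored 0.703 and 1.57 kb away (chr4:136055001-136060000). Rps3, at the mRNA entry of the small subunit and also known in DNA repair, started 1.26 kb from an intergenic Strong boundary with a score of 1.92 (chr7:99485001-99490000), the second highest among the 28 genes.

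Next came Rpl23a, a protein at the peptide exit, 1.42 kb from a Weak boundary (chr11:78185001-78190000) that holds the start of the Rab GTPase gene Rab34. Rpl31 started 2.84 kb from a Strong boundary scored 0.915 (chr1:39360001-39365000), which overlaps exonic sequence of the clock gene Npas2. Rps27 lay 3.65 kb from a Weak boundary scored 0.277 (chr3:90205001-90210000) beyond its 3′ end, and the Rab GTPase gene Rab13 started 0.044 kb from it on the opposite strand. Rpl13a lay 3.76 kb from a Weak boundary beyond its end. In all, 19 of the 80 members started within 5 kb of a boundary.

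From 5 to 10 kb there were 9 members. Rpl18 lay 5.46 kb from a Strong boundary scored 1.01 (chr7:45705001-45710000), which holds the start of the circadian transcription factor gene Dbp. Rps13 lay 5.81 kb from a Weak boundary scored 0.261 (chr7:116340001-116345000) that overlaps exonic sequence of the lipid kinase gene Pik3c2a. Rpl32 lay 6.25 kb from a Strong boundary scored 0.794 (chr6:115815001-115820000) that overlaps exonic sequence of Efcab12. Rps2, a protein of the mRNA entry, started 6.88 kb before the boundary that holds the start of Rpl3l. Rps27a, which encodes ubiquitin fused to a ribosomal protein, lay 6.89 kb from a Strong boundary scored 0.590 (chr11:29555001-29560000) that overlaps exonic sequence of Clhc1. Rps25, a small subunit protein used by some viral internal ribosome entry sites, lay 7.86 kb from a Strong boundary scored 1.29 (chr9:44415001-44420000), which holds the start of Ccdc84. Rps10 lay 8.33 kb from an intergenic Weak boundary scored 0.273 (chr17:27645001-27650000), and Pacsin1 started nearer to that boundary, at 5.51 kb. Rpl17 lay 8.56 kb from an intergenic Strong boundary scored 1.55 (chr18:74985001-74990000), and 10.5 kb from it by the RefSeq start. Rplp1, a protein of the stalk that recruits elongation factors, lay 9.54 kb from an intergenic Strong boundary scored 1.38 (chr9:61900001-61905000) and was the last gene inside the 10 kb limit.

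Just outside the limit were Rpl3 at 11.9 kb, Rpl28 at 12.1 kb, Rpl23 at 12.4 kb and Rps23 at 13.0 kb. The boundary of Rpl3, a protein near the peptidyl transferase centre, overlaps the 3′ end of the gene record (score 1.18), and by the RefSeq start Rpl3 is 3.41 kb from it. The boundary of Rps23, a protein of the decoding centre, is Strong with a score of 3.04, the highest score of a nearest boundary among all 80 members, and it holds the start of Atp6ap1l. Rps14 is another gene whose distance rests on the annotation: 37.9 kb by the GENCODE start, and 10.4 kb by RefSeq. For 58 of the 80 members the most upstream RefSeq start lay within 100 bases of the GENCODE start, and for 8 it was over 1 kb away. With RefSeq starts 28 members were again within 10 kb, with Rpl3 in place of Rpl17.

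The 52 members beyond 10 kb were 11 up to 25 kb, 35 from 25 to 100 kb and 6 farther. Of the 11, 9 had a Strong nearest boundary (81.8%, against 65.3% of protein-coding genes at such distances), and of the 35, 25 had (71.4%, against 63.8%). The farthest was Rpl10l, the testis paralogue of Rpl10, at 374.4 kb. It was the only coding start in an interval of 1145 kb between 2 Weak boundaries, scored 0.247 and 0.395. Rps9, which helps keep decoding accurate in yeast, followed at 329.0 kb in an interval of 710.0 kb with 19 coding starts. Rpl35a lay 123.5 kb away and Rpl27 107.7 kb. None of the 4 members on X (Rpl10, Rpl36a, Rpl39 and Rps4x) started within 10 kb, and 7.91% of protein-coding genes on X did. Rpl39 lay 15.4 kb from its nearest boundary, at one end of an interval of 990.0 kb with 39 coding starts.

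The side of the boundary was read along transcription. In the 28 members near a boundary it lay over the start in 10 (35.7%), upstream in 11 (39.3%), downstream but overlapping the gene in 2 and beyond the gene's end in 5 (17.9%). All protein-coding genes that near had 26.3% over the start, 41.3% upstream, 26.5% downstream but overlapping the gene and 5.87% beyond its end. The median length was 3.33 kb for members and 17.4 kb for protein-coding genes, so that the 5 kb interval of a boundary exceeds the median member. Rps27, Rpl13a, Rps2, Rps25 and Rplp1 were the 5 members with a boundary beyond the end.

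**Figure D4:**
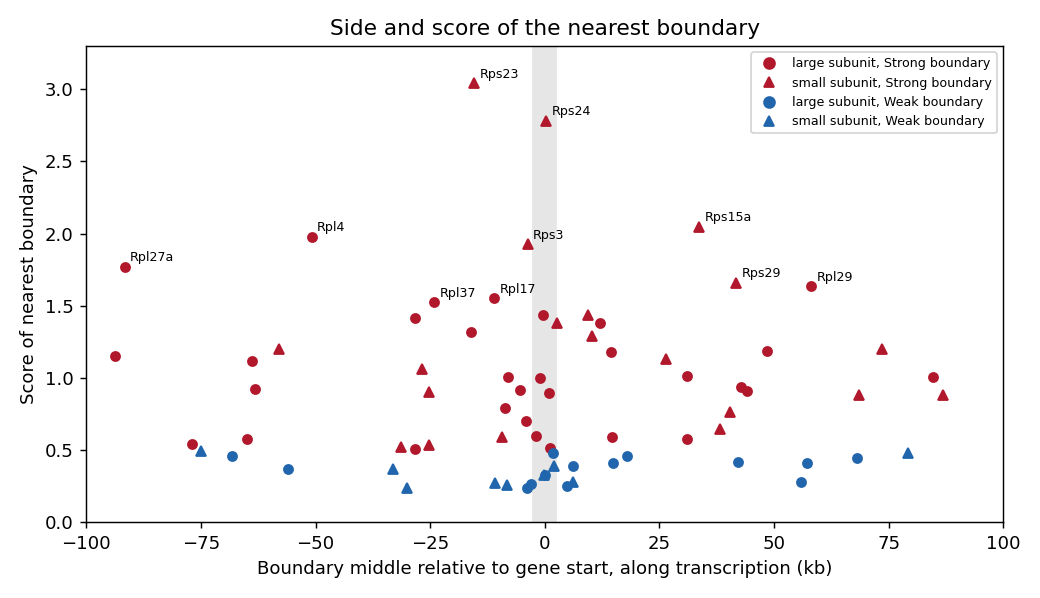
Score of the nearest boundary against the position of its middle relative to the gene start, in kb along transcription (negative is upstream), for the members within 100 kb; the shaded band marks middles within 2.5 kb, and genes with a score over 1.5 are named. Strong boundaries (red) and Weak ones (blue) occur on both sides.

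By subunit, starts near a boundary belonged to 17 of 49 large subunit genes (34.7%, exact 95% interval 21.7 to 49.6%) and 11 of 31 small subunit genes (35.5%, exact 95% interval 19.2 to 54.6%). Their median distances were 25.8 kb (large) and 24.4 kb (small). Inside a boundary lay the starts of 14.3% of large and 9.68% of small subunit genes. Members with an annotated snoRNA inside numbered 29, and 11 of them were near a boundary (37.9%), against 17 of the 51 others (33.3%). The nearest boundary was Strong in 4 of those 11 genes (36.4%) and in 13 of those 17 (76.5%), against 63.7% of all protein-coding genes that near. Among the 11 were Rpl13a with 4 snoRNAs and Rpl5, Rpl23a and Rpl17 with 3 each. The intervals of the large and small subunit overlap widely, and no interval was computed for the Strong shares. Differences between the classes were not tested.

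Since genes lie at uneven density, the shares were also taken by the number of neighbouring starts. Members had a median of 5 other protein-coding starts within 100 kb and all protein-coding genes 3. With 0 or 1 such neighbours, 7 of 13 members were near a boundary (53.8%), against 11.2% of protein-coding genes. Among the 7 were Rpl37a, Rps24, Rps6, Rpl31, Rps13 and Rplp1. With 2 to 4 neighbours it was 5 of 25 members (20%, against 14.1%), with 5 to 9 it was 10 of 26 (38.5%, against 11.7%) and with 10 or more it was 6 of 16 (37.5%, against 11.4%). The exact 95% intervals of the members' shares were 25.1 to 80.8%, 6.83 to 40.7%, 20.2 to 59.4% and 15.2 to 64.6% in that order, and the share of protein-coding genes lay inside the second of these.

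**Figure D5:**
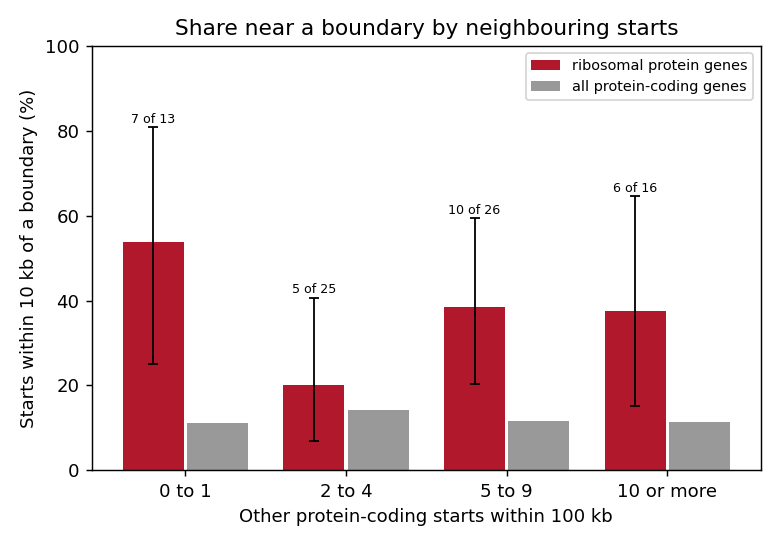
Share of starts within 10 kb of a boundary (%) by the number of other protein-coding starts within 100 kb, for ribosomal protein genes (red, with exact 95% intervals and counts) and all protein-coding genes (grey). The red bars stand at 53.8, 20, 38.5 and 37.5% and the grey ones between 11.2 and 14.1%.

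Of the 28 members, 17 started closer to their boundary than any other protein-coding gene, and 7 had another coding start closer to it. The other 4 (Rpl9, Rpl41, Rpl35 and Rps24) had another coding start inside the same boundary, at the same distance of 0. Over all protein-coding genes, 2692 starts that near lay by 2067 boundaries, so most were also first or tied at theirs. Their exact share was not counted. Another coding start lay within 10 kb of the same boundary for 16 of the 28 members (57.1%), against 41.7% of all protein-coding genes near a boundary. At 12 of the 26 boundaries (46.2%) the ribosomal protein gene was the only coding start within 10 kb. Of all 2067 boundaries with a coding start that near, 75.9% had just 1. The 26 boundaries were reached through their genes, so those with more starts had more chances to be among them. The shares by gene, 57.1 and 41.7%, are therefore the closer comparison. Among the 12 boundaries were those of Rpl26, Rpl13, Rps6, Rpl5, Rps3 and Rpl11. The most crowded had 5 such starts and were those of Rpl3l with Rps2 and of Rpl23a. An opposite-strand coding start within 1 kb upstream was found for 8 members, 4 of them near a boundary: Rpl9 with Lias, Rps24 with Polr3a, Rps27 with Rab13, and Rps2 with the ring finger gene Rnf151. The share of all protein-coding genes with such a neighbour was not counted. These are GENCODE starts, and the list depends on the annotation. The RefSeq starts of Rps24 and Rps2 lie 3.55 and 1.95 kb farther along, over 1 kb from the GENCODE starts of Polr3a and Rnf151. RefSeq starts also add such neighbours. Arpc5l and Trappc4 start 0.276 and 0.461 kb past the GENCODE starts of Rpl35 and Rps25, on the opposite strand. The RefSeq starts of Rpl35 and Rps25 lie 0.493 and 0.575 kb along, so that both neighbours are then upstream. The same holds for Rpl12, Rps18 and Rpl15, which are not near a boundary.

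Ribosomal protein genes that neighbour each other were few. In 8 pairs the next member on the chromosome was within 1 Mb, and 5 of these pairs had at least 1 boundary wholly between their starts. Rps28 and Rps18, 131.4 kb apart on chromosome 17, had 1 Strong boundary scored 1.20 between them, the nearest one to both. Rpl23 and Rpl19, 244.3 kb apart on chromosome 11, were separated by 1 Weak boundary scored 0.335. The other 3 pairs, among them Rps2 with Rpl3l and Rpl41 with Rps26, each had 1 nearest boundary in common, which held the start of 1 of the 2 genes. Rps2 and Rpl3l start 9.70 kb apart, so that this pair counts 2 near genes for 1 boundary.

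Members that lay outside boundaries, 70 in number, sat in intervals between boundaries with a median of 220.0 kb and 7 coding starts. For protein-coding genes outside boundaries the medians were 275.0 kb and 6 coding starts. The shortest interval, 85.0 kb, held Rps14. Only 2 members, Rps23 and Rpl10l, had no other coding start in their interval (2.86%), which was the case for 8.85% of protein-coding genes.

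The consensus of CTCF, the insulator protein, was found on either strand within 10 kb of 6 of the 26 boundaries (23.1%), and within 10 kb of 23.1% of all 7435 boundaries and 26.9% of those with a coding start that near. Inside the boundary itself it was found at 1 of the 26 and at 6.27% of all boundaries. The matches at Rpl41 and Rpl9 are shown with 4 bases on each side, since the boundaries next to them hold these genes' starts. Capitals mark the consensus.
Rpl41: atcaCCACCAGGTGGCgctt
Rpl9: cttgCCAGTAGAGGGCaggc
The first (chr10:128536447-128536466, - strand) is 12.8 kb from the start of Rpl41, and the second (chr5:65401843-65401862, + strand) 10.4 kb from that of Rpl9. Boundaries of Rps27a, Rps10 and Rpl17 also had a match within 10 kb, and exact matching misses sites that depart from the consensus. Median GC content was 47.8% in the 26 boundaries, 45.3% in all boundaries with a coding start within 10 kb and 42.6% in the whole list.

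Other genes of translation were taken from 2 lists. Of 30 genes for translation factors and TOP mRNAs, 11 started within 10 kb of a boundary (36.7%, exact 95% interval 19.9 to 56.1%), with a median distance of 25.0 kb. The nearest boundary was Strong for all 11, with scores from 0.730 to 2.17, and for 63.7% of all protein-coding genes that near. Inside a boundary lay 5 of the 30 starts, and the 3 with the highest scores were those of Btf3, a factor of nascent peptides (1.56), Ncl, the nucleolar protein nucleolin (1.31), and Tpt1, which encodes TCTP (1.17). Of 40 ribosome assembly genes, 8 were near (20%, exact 95% interval 9.05 to 35.6%), at a median distance of 33.3 kb. Eif6, whose protein keeps the large subunit from joining too early, started inside a boundary scored 1.33, while Lsg1 and Ddx21 lay 2.41 and 2.72 kb from theirs. For other complexes with many subunits, 16 of 78 mitochondrial ribosomal protein genes (20.5%, median distance 41.8 kb) and 12 of 45 proteasome genes (26.7%, median distance 41.6 kb) were near a boundary. Of these near genes, the boundary was Strong for 6 of the 8 for assembly, 12 of the 16 mitochondrial ones and 11 of the 12 of the proteasome (91.7%). Differences between ribosomal protein genes and these lists were not tested.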

How the data were processed

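In situ Hi-C was measured in 2 replicates of 1 group, and the deposited file is 1 list of boundaries with a class and a score. The authors derived it from a contact matrix that merges both replicates, per the series design text, on GRCm38, the build in the submitters' processing notes. For the authors' deposited score, the formula, the caller and its filters are not given in the sources at hand, and the score was used only within this list. Values per replicate and read depth were not used here.

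Gene starts, exons and snoRNAs came from GENCODE M21 and sequence and curated transcript starts from RefSeq GRCm38.p6; every boundary lay within its chromosome. For each gene, the nearest boundary, its distance in bases, side and neighbouring starts were computed (Python 3.11.15, numpy 2.4.6, pysam 0.24.0), and the distance search was tested on simulated data. Exact intervals used scipy 1.17.1. Coordinates are 1-based. The members and lists were chosen with earlier results of these data known, so no test was made, and members are set beside all protein-coding genes, members included. The rule for named genes took every member within 10 kb, the 5 farthest and those next to the 10 kb limit, and the 3 nearest genes at most of each other translation list (ties by score); some of them are counted in all totals but not reported here one by one. Of the 80 members, 60 have an entry in the RefSeq promoter table. Alternatives changed the distance, the boundary class or score, the start, the symbol rule and the background.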

Additional observations from a re-analysis of the deposited data

How the results depend on the processing

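Each alternative was computed for members and for all protein-coding genes. The share of members near a boundary was 35.0%, a ratio of 2.83 to all protein-coding genes. Counting only starts inside a boundary gave 12.5% (ratio 3.84), within 5 kb 23.75%, within 25 kb 48.75% (ratio 1.98) and within 50 kb 68.75% (ratio 1.56). Strong boundaries only gave 21.25% and boundaries scored at least 1 gave 12.5%, with ratios of 2.70 and 3.47. Counting any base of the gene body gave a ratio of 1.59, where protein-coding genes are longer than members. Counting genes with the same nearest boundary once gave a ratio of 0.960: by construction this keeps the closest gene at each boundary, 5801 of 21755 protein-coding genes but 76 of 80 members. The wider symbol rule, paralogues left out, X left out and transcript starts gave ratios from 2.69 to 2.93. Chosen after seeing the data, RefSeq starts gave 2.80, and genes with a CpG-rich window at the start gave 13 of 37 members and 14.9% of 8027 protein-coding genes (ratio 2.35). The median distance was 55.5 kb to Strong boundaries. Upstream boundaries numbered 5 within 5 kb, 17 within 25 kb and 7 with Strong ones only. Those beyond the end numbered 2, 9 and 3 in that order. Strong ones lay over the start in 6 members and downstream but overlapping the gene in 1. The median score was between 0.513 and 0.794. No paired analysis was possible because the list pools both replicates, and for the same reason no replicate could be left out.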
